A study of Homo sapiens with 58 samples.

Results

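Libraries from HepG2 cells given a 70% ethanol extract of Pinelliae Tuber were compared with libraries from HepG2 cells given a 70% ethanol extract of Scutellariae Radix, both at 500 µg/mL for 24 h. The 6 libraries, 3 for each extract, were taken by their labels from 58 libraries in 24 groups of mRNA sequencing, and they share a label prefix, 10, whose meaning the labels do not give. Both extracts were also given for 24 h at 100 µg/mL and at 20 µg/mL, called the medium and low dose here, with 3 libraries each and the same prefix. The 3 vehicle libraries had DMSO alone, at 0.1% by their labels and at 2% by the text of the series. Titles of the vehicle and of both extracts name the same batch, BatchC. The vehicle libraries carry a label prefix of their own, though. For any comparison with vehicle, whatever the prefix marks and the extract cannot be told apart. HepG2 is an established line from a human hepatocellular carcinoma, and the labels do not say whether the 3 replicates were separate cultures, so p-values measure only the spread between these libraries.

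Pinelliae Tuber is the dried tuber of Pinellia, and Scutellariae Radix is the dried root of Scutellaria baicalensis, which is rich in flavones such as baicalin and wogonin. HepG2 cells keep much of the secretory programme of hepatocytes and respond to planar aromatic compounds through the aryl hydrocarbon receptor (AhR), which induces CYP1A1. Liver cells under chemical stress are known to draw on several transcription programmes: NRF2 for oxidants, ATF4 and CHOP for amino acid or endoplasmic reticulum stress, p53 for DNA damage and cell-cycle arrest, and the AP-1 and EGR immediate early genes downstream of ERK.

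Promoter sequence is shown for 4 genes, because each stands for a group of genes that moved together between the extracts. Each line gives the 250 bases before the RefSeq transcription start (GRCh38.p14), 5′ to 3′ on the strand of the gene, with matches to the searched motif on either strand in capitals. Gene positions elsewhere in the text are the outer bounds of GENCODE 29, which take in other start sites, so the windows of ASNS and MT1X lie partly, and that of PLK1 wholly, inside those bounds. EGR1, an immediate early transcription factor, has 2 CArG boxes (the site of serum response factor) starting 105 and 83 bases before the start, in chr5:138465229-138465478 on the plus strand. ASNS, asparagine synthetase, has TGATGNAA, the core of the C/EBP-ATF response element, 68 bases before its start, in chr7:97872409-97872658 on the minus strand. MT1X, a metallothionein, has TGCNCNC, the core of the metal response element, at 150, 122, 78 and 53 bases, in chr16:56682220-56682469 on the plus strand. PLK1, a mitotic kinase, has TTTGAA, the CHR element of cell-cycle genes, 29 bases before its start, in chr16:23678639-23678888 on the plus strand.
EGR1: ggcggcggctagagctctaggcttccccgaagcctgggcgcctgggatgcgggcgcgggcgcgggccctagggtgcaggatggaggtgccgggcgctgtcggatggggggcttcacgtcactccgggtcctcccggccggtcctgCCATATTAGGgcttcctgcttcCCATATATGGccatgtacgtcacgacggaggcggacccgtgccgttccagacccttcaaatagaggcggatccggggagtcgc
ASNS: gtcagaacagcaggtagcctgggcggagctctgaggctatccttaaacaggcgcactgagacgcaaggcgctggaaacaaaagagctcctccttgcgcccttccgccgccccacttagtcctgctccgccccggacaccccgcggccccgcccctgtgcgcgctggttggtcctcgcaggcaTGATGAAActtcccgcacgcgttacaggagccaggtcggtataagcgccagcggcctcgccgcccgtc
MT1X: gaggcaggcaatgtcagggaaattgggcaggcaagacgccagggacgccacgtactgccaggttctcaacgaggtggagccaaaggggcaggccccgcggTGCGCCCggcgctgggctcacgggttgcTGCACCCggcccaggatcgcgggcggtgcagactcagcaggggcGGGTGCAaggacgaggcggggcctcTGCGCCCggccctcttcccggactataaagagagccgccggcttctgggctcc
PLK1: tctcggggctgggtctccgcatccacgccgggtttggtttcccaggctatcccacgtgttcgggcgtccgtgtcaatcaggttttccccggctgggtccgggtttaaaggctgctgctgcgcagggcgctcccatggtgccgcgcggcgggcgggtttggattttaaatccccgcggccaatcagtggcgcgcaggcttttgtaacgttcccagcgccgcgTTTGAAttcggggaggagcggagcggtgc

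Among the 27305 promoters of this length in the RefSeq table, 13.6% held TTTGAA, against 11 of the 18 mitosis genes with an entry. TGATGNAA was in 3.19% of all promoters and in 4 of 19 ATF4 and CHOP targets, GCGTG (the core of the xenobiotic response element that AhR binds) in 31.9% and in 6 of 10 AhR targets, and TGCNCNC in 48.4% and in 4 of 6 metallothionein and zinc transporter genes. The CArG box was in 1.14% of all promoters and in 1 of 12 AP-1 and EGR genes, which is EGR1. GGCGCC, a core of BMP response elements, was in 16.1% and in 4 of 11 BMP and TGF-β targets. TGANTCA, the AP-1 site, was in 6.6% and in 0 of 12 AP-1 and EGR genes, which says only that these letters are not in those windows. A match is a description of the letters and not a binding site measured here.

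The 6 libraries held 24345937 to 28487847 expected reads, and no 2 replicates of the same group held identical values. Over the 21 libraries of both extracts and vehicle, the first principal component held 44.5% of the variance. The 3 Scutellariae Radix high-dose libraries lay at 49.1 to 49.79 on it and the other 18 libraries, the Pinelliae Tuber high-dose ones included, between -11.24 and -3.51. All 10 markers of hepatocytes and HepG2 cells had reads in both groups, with a summed level of 43300 to 44900 CPM, counts scaled by library size, under Pinelliae Tuber, 31900 to 32300 under Scutellariae Radix and 42800 to 43300 under vehicle. Summed markers of fibroblasts (9 genes), endothelium (8) and lung epithelium (8) stayed at or under 17.4 CPM in these 3 groups. The leukocyte list reached 1490 to 1620 CPM under Pinelliae Tuber and 1730 to 1740 under Scutellariae Radix, nearly all of it LYZ, and the intestine list 364 to 372 and 214 to 223, nearly all of it VIL1. Beside these, 3 of 9 leukocyte markers had 0 reads in both groups and 4 and 2 of the 9 intestine markers had none under Pinelliae Tuber and Scutellariae Radix. In bulk RNA, fewer cells of a kind and less RNA per cell cannot be told apart.

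A gene is called here where edgeR's quasi-likelihood test gave a Benjamini-Hochberg adjusted p under 0.05 over the 13945 genes tested. Differences are log2 values of Scutellariae Radix minus Pinelliae Tuber, with their standard error (SE). At 500 µg/mL, 7795 genes were called (55.9%), 3788 higher under Scutellariae Radix (27.2%) and 4007 lower (28.7%). At least 2-fold, 633 genes differed (4.54%): 463 genes were higher (3.32%) and 170 lower (1.22%), so the larger differences lay more often above 0. The groups of 3 did not overlap for 8640 of the 13945 genes (62.0%). Over all 58 libraries in the fit, replicates of a group were close, with a common coefficient of variation of 4.25% beyond counting error. Small differences could therefore also be called. That value was not estimated from the 6 libraries alone.

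**Figure D1:**
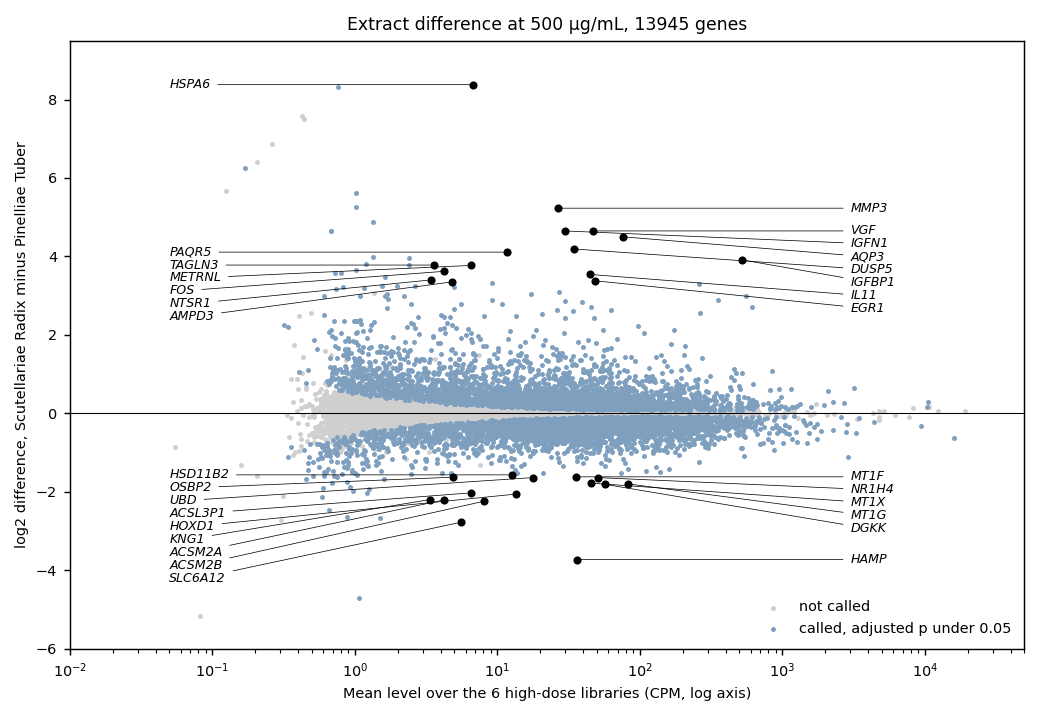
Each point is 1 of 13945 genes, with its mean level over the 6 high-dose libraries (CPM, log axis) against the log2 difference, Scutellariae Radix minus Pinelliae Tuber, at 500 µg/mL. Named black points are the 15 largest called differences each way by the naming rule; the fitted values run from 8.38 for HSPA6, which had almost no reads under Pinelliae Tuber, to -3.73 for HAMP.

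Most tested immediate early and ERK pathway genes were higher under Scutellariae Radix. EGR1 (chromosome 5, 138465490-138469315) stood at 8.17, 7.91 and 9.32 CPM in the 3 Pinelliae Tuber libraries and at 94.8, 84.7 and 84.9 in the 3 Scutellariae Radix libraries. No library of the first group came near the second, and the difference was 3.38 (SE 0.078, adjusted p = 3.7e-34), 10.4-fold. FOS, a partner in the AP-1 dimer, was at 0.684, 0.591 and 0.631 CPM against 8.78, 7.91 and 6.86, a difference of 3.62 (SE 0.189, adjusted p = 4.9e-21). FOSB, its close relative, differed by 3.24 and ATF3, a stress-induced factor of the same family, by 3.03. All 15 tested AP-1 and EGR genes were called higher under Scutellariae Radix, with a median of 1.32, against a median of 0.00 and 27.2% called higher over all genes. MYC, a growth regulator on the same list, differed less, at 182, 182 and 188 CPM against 242, 231 and 239 (0.37, adjusted p = 3.5e-11).

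ERK feedback genes and ligands of the EGF receptor moved the same way in 13 of 16 tested members (27.2% of all genes). On this list 0 were called lower (28.7% of all genes), and the median was 0.91. DUSP5, a nuclear phosphatase that acts on ERK, was at 3.81, 3.1 and 3.75 CPM under Pinelliae Tuber and 72.5, 63.2 and 60.0 under Scutellariae Radix, 18.3-fold higher (4.19, SE 0.087, adjusted p = 9.1e-36). The ligand genes EREG (epiregulin), AREG (amphiregulin) and HBEGF differed by 3.31, 2.83 and 1.91. AREG lay at 10.7, 9.49 and 8.97 CPM against 70.6, 69.1 and 67.3, with no overlap.

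Further genes with large differences belonged to neither of these lists. MMP3 (chromosome 11, 102835801-102843803), a matrix metalloproteinase, was at 1.69, 1.4 and 1.05 CPM under Pinelliae Tuber and 58.9, 50.5 and 45.9 under Scutellariae Radix, 37.4-fold higher (5.23, SE 0.146, adjusted p = 3.5e-31). IGFBP1 (chromosome 7, 45888357-45893668), a liver-secreted binding protein of insulin-like growth factors, was at 63.8, 66.2 and 65.9 CPM against 999, 944 and 1010 (3.91, SE 0.115, adjusted p = 2.6e-30). This made IGFBP1 the most abundant of the 15 genes named as highest under Scutellariae Radix. AQP3, an aquaglyceroporin, was at 6.8, 6.58 and 5.99 CPM against 152, 139 and 147, 22.6-fold higher (adjusted p = 2.4e-39). The cytokine gene IL11 differed by 3.54, the neuropeptide precursor gene VGF by 4.65, and IGFN1, a gene of an immunoglobulin-domain protein of muscle, by 4.65. PAQR5, a membrane progestin receptor, differed by 4.11, METRNL, a secreted protein, by 3.77, NTSR1, the neurotensin receptor, by 3.40, AMPD3, an AMP deaminase, by 3.35 and TAGLN3, a calponin-family protein, by 3.78. AXL, a receptor tyrosine kinase, was 6.23-fold higher and CXCL8, the chemokine interleukin-8, 3.54-fold higher.

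HSPA6 had the largest fitted difference, but it had almost no reads under Pinelliae Tuber, so no fold is given. This inducible HSP70 gene (chromosome 1, 161524540-161526910) was at 0.036, 0.0 and 0.0701 CPM under Pinelliae Tuber and at 14.3, 13.6 and 12.8 under Scutellariae Radix. HSPA1A and HSPA1B, the main inducible HSP70 genes, lie in a near-identical pair whose reads the counting had to share, and differed by 0.83 and 0.56. Of 14 tested heat shock genes, HSPA1A and HSPA1B included, 6 were called higher and 7 lower (27.2% and 28.7% of all genes). HSP90AA1 was at -0.43 (adjusted p = 1.2e-13).

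The integrated stress programme was higher in the Scutellariae Radix libraries in 19 of 21 tested ATF4 and CHOP targets, with a median of 0.79. Of the 21, 1 was lower, where 27.2% of all genes were called higher and 28.7% lower. ASNS (chromosome 7, 97852118-97872542), whose promoter is printed above, was at 33.7, 35.0 and 33.9 CPM under Pinelliae Tuber and 158, 154 and 165 under Scutellariae Radix. That is a 4.65-fold difference (2.22, SE 0.048, adjusted p = 5.2e-35) with no overlap between groups. GDF15, a secreted stress hormone, was at 158, 147 and 176 CPM against 1100, 962 and 1120 (2.72, SE 0.066, adjusted p = 2e-33), and DDIT3, which encodes CHOP, at 9.68, 12.4 and 10.8 against 23.9, 21.9 and 25.9 (1.13, SE 0.073, adjusted p = 1e-17). FGF21, another target, was at or under 0.211 CPM in all 6 libraries and was not tested. Chaperones of the endoplasmic reticulum, which the unfolded protein response induces, differed the other way: 15 of 18 were called lower and 2 higher, with a median of -0.29. CALR (calreticulin) was at 1530, 1370 and 1420 CPM under Pinelliae Tuber and 933, 889 and 926 under Scutellariae Radix (-0.66, SE 0.032, adjusted p = 2.5e-22), and PDIA4, a disulfide isomerase, differed by -0.54.

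Genes that p53 is known to induce were called higher in 18 of 20 tested cases and lower in 0 (27.2% and 28.7% of all genes). Their median was 0.66. CDKN1A (chromosome 6, 36676460-36687339), which encodes the cell-cycle inhibitor p21, was at 77.4, 77.1 and 77.2 CPM under Pinelliae Tuber and at 452, 441 and 472 under Scutellariae Radix, 5.89-fold higher (2.56, SE 0.036, adjusted p = 1e-42). SESN2, a sestrin that is also on the ATF4 list, differed by 1.80, BBC3, which encodes the death-promoting protein PUMA, by 1.53, and GADD45A by 1.21.

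Proliferation genes were lower under Scutellariae Radix without exception on either list: 23 of 23 mitosis genes, with a median of -0.83, and 24 of 24 genes of DNA replication, with a median of -0.62, against 28.7% called lower over all genes. MKI67, the proliferation marker Ki-67 (chromosome 10, 128096659-128126385), was at 371, 378 and 358 CPM under Pinelliae Tuber and 155, 157 and 154 under Scutellariae Radix (-1.25, SE 0.068, adjusted p = 2.7e-20). PLK1 stood at 253, 251 and 266 CPM against 124, 120 and 124 (-1.06, SE 0.043, adjusted p = 6.7e-25). The kinesin genes KIF20A and CENPE differed by -1.26 and -1.13, and the replicative helicase genes MCM2, MCM5 and MCM3 by -0.94, -0.89 and -0.86. Vehicle libraries averaged 329 CPM of MKI67 and 275 CPM of PLK1, near the Pinelliae Tuber levels. Replication-dependent histone genes went against the other proliferation lists, with 5 of 7 tested higher (27.2% of all genes) and 0 lower. These are multicopy genes whose transcripts mostly lack a poly-A tail. H2AC6 was at 7.16, 7.83 and 7.04 CPM against 20.2, 19.7 and 22.1 (1.49, adjusted p = 5.9e-23).

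**Figure D2:**
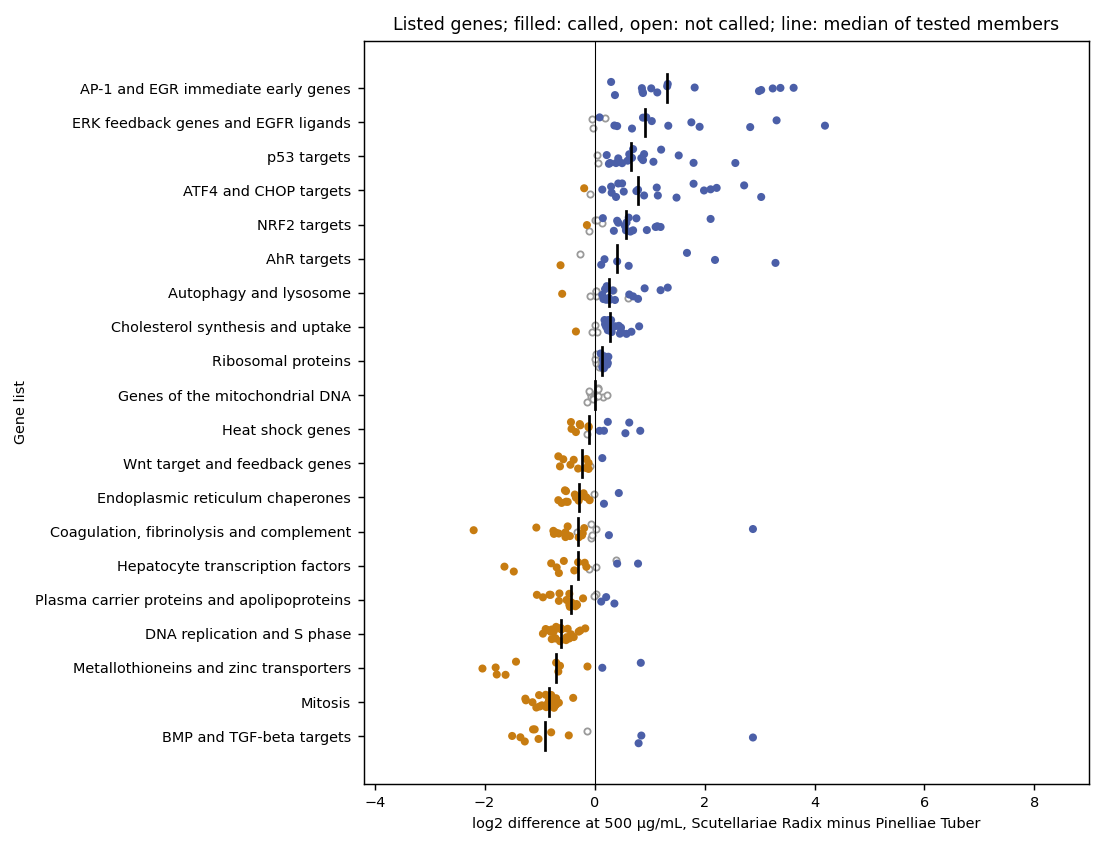
Each point is a tested gene of a list, placed by its log2 difference at 500 µg/mL, Scutellariae Radix minus Pinelliae Tuber; filled points were called, open points were not, and the black line is the median of the tested members. All mitosis and replication genes lie left of 0, and all AP-1 and EGR genes lie right of it.

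Genes of hepatocyte function were lower under Scutellariae Radix in most, but not all, of the lists. HAMP (chromosome 19, 35280716-35285143), which encodes the iron hormone hepcidin, had the largest named difference downwards: it was at 75.8, 63.7 and 62.8 CPM under Pinelliae Tuber and 5.31, 4.73 and 5.13 under Scutellariae Radix. That is 13.3-fold lower (-3.73, SE 0.107, adjusted p = 9.8e-31), while vehicle averaged 65.1 CPM. Hepcidin transcription is known to depend on BMP signalling, and 8 of 12 BMP and TGF-β targets were called lower (28.7% of all genes). A further 3 were higher (27.2% of all genes), and the median was -0.91. ID1, a direct BMP target, was at 202, 204 and 209 CPM against 68.1, 69.4 and 79.6 (-1.50, SE 0.087, adjusted p = 1.6e-19), and SMAD9 and ID3 differed by -1.35 and -1.27.

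Plasma carrier and apolipoprotein genes were lower in 15 of 20 cases and higher in 3 (median -0.44). Genes of coagulation, fibrinolysis and complement were lower in 15 of 22 and higher in 2 (median -0.30). Over all genes, 28.7% were called lower and 27.2% higher. APOH, a plasma glycoprotein, was at 1150, 1160 and 1150 CPM against 624, 590 and 592 (-0.94, SE 0.057, adjusted p = 9.8e-19). HPX (hemopexin) differed by -1.05, KNG1 (kininogen) by -2.20 and FGB (fibrinogen β chain) by -0.75. ALB, at 9840, 10500 and 10700 CPM against 8270, 8310 and 8360, differed by -0.32 (adjusted p = 1e-09), less than these. Among transcription factors of hepatocytes, 10 of 15 were lower and 2 higher. CEBPA, which drives hepatocyte genes, was at 161, 169 and 159 CPM against 52.4, 61.0 and 62.6 (-1.47, SE 0.122, adjusted p = 2.9e-14). NR1H4, which encodes the bile acid receptor FXR, was at 76.4, 77.4 and 78.0 against 24.0, 25.7 and 24.6 (-1.64, SE 0.051, adjusted p = 1.9e-29), and CEBPB was higher (0.79, adjusted p = 0.0003).

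Other genes among the 15 lowest were SLC6A12, a betaine transporter (-2.78), HOXD1, a homeobox factor (-2.06), DGKK, a diacylglycerol kinase (-1.81), UBD, a ubiquitin-like modifier (-1.64), OSBP2, an oxysterol-binding protein (-1.63), and HSD11B2, which inactivates cortisol (-1.57). ACSM2A (-2.21) and ACSM2B (-2.24), medium-chain acyl-CoA synthetases, are near-identical neighbours, and ACSL3P1 (-2.03) is a pseudogene of ACSL3, so their split of reads is uncertain. SLC6A12 was at 9.68, 10.2 and 9.14 CPM against 1.26, 1.27 and 1.69, with no overlap.

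Metallothioneins, which bind zinc and copper and are induced by metals, were lower as a group. Of 11 tested members of the metallothionein and zinc transporter list, 9 were called lower and 2 higher (28.7% and 27.2% of all genes). The median was -0.70. MT1X was at 71.1, 64.4 and 75.9 CPM under Pinelliae Tuber and 20.8, 18 and 22.6 under Scutellariae Radix (-1.78, SE 0.084, adjusted p = 1.6e-22). MT1G, MT1F and MT1M differed by -1.80, -1.62 and -2.04, but reads of these close paralogs were shared among them in counting. Against vehicle, which averaged 68.3 CPM, MT1X was not called in the Pinelliae Tuber libraries (0.05, adjusted p = 0.74) and differed by -1.73 in the Scutellariae Radix libraries (adjusted p = 4.6e-22).

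Conjugation enzymes were mixed, with 4 of 17 genes of drug receptors and conjugation higher and 7 lower (27.2% and 28.7% of all genes). SULT2A1, a sulfotransferase of steroids and bile acids, was at 168, 166 and 165 CPM against 85.6, 79.2 and 81.4 (-1.02, SE 0.050, adjusted p = 6e-22). GSTA1 and GSTA2, glutathione transferases with very similar sequence, differed by -1.35 and -1.26. UGT1A1, which conjugates bilirubin, was low in both groups, at 0.432, 0.48 and 0.525 CPM against 2.32, 1.91 and 2.03 (2.11, adjusted p = 9.3e-07). CYP3A4 and CYP7A1 stayed at or under 0.48 CPM in the 6 libraries and were not tested. On the list of bile acid and FXR genes, 2 of 11 were higher, the export pump genes ABCC2 (0.76) and ABCC3 (0.81), and 5 were lower.

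NRF2 targets were higher in 16 of 21 tested cases and lower in 1 (27.2% and 28.7% of all genes), with a median of 0.57. SLC7A11, the cystine importer that is also an ATF4 target, was at 61.1, 67.5 and 67.0 CPM against 293, 292 and 262 (2.11, SE 0.055, adjusted p = 2.5e-32). SRXN1, TXNRD1 and GCLC, of the thioredoxin and glutathione systems, differed by 1.20, 1.14 and 1.11 and HMOX1, heme oxygenase, by 0.62. The transcript of NRF2 itself, NFE2L2, which is on the AhR list, was lower: 262, 270 and 264 CPM against 169, 178 and 170 (-0.62, SE 0.038, adjusted p = 1.3e-18). Autophagy and lysosome genes were higher in 16 of 23 cases and lower in 1 (median 0.26), led by GABARAPL1 (1.33) and MAP1LC3B (1.20), which encode proteins of the autophagosome membrane, and by the cargo receptor gene SQSTM1 (0.91).

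CYP1A1 showed another order of doses from the genes above. At 500 µg/mL it was at 50.0, 48.0 and 46.7 CPM under Pinelliae Tuber and 458, 467 and 486 under Scutellariae Radix, 9.75-fold higher (3.29, SE 0.076, adjusted p = 3.4e-34). Under Scutellariae Radix it was higher at the medium dose, at 657, 679 and 708 CPM, than at the high dose, and stood at 270, 238 and 203 CPM at the low dose. Under Pinelliae Tuber it was at 16.3, 14.3 and 12.5 CPM at the medium and 14.2, 12.2 and 11.2 at the low dose, close to the 12.7, 10.8 and 14.0 of vehicle. The extract difference was therefore 5.56 at the medium dose and 4.24 at the low dose, and it was smaller at the high than at the low dose (interaction -0.95, SE 0.119, adjusted p = 5.6e-09). Pinelliae Tuber at 500 µg/mL was itself above its low dose by 1.94 (adjusted p = 4.8e-20). AHRR, the repressor that AhR induces, differed by 1.68 at the high and 2.26 at the medium dose. In all, 7 of 9 AhR targets were higher and 1 lower at the high dose (27.2% and 28.7% of all genes).

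Sterol genes had the largest median against vehicle in the Pinelliae Tuber libraries among the 41 gene lists. Of 23 tested genes of cholesterol synthesis and uptake, 19 were higher under Scutellariae Radix and 1 lower, against 27.2% and 28.7% of all genes. The median was 0.28, but both extracts were below vehicle for most of these genes. HMGCS1, which makes the precursor of mevalonate, was at 261, 256 and 257 CPM under Pinelliae Tuber and 326, 342 and 334 under Scutellariae Radix (0.37, SE 0.038, adjusted p = 2.3e-11), while vehicle averaged 475 CPM. Against vehicle the difference of HMGCS1 was -0.88 for Pinelliae Tuber and -0.51 for Scutellariae Radix. With the same 3 vehicle libraries in both, 22 of the 23 genes were lower under Pinelliae Tuber (6.57% of all genes; median -0.58) and 20 under Scutellariae Radix (28.1% of all genes; median -0.31). Within the label prefix, 22 of 23 were also lower in the high-dose than in the low-dose Pinelliae Tuber libraries (4.98% of all genes; median -0.59). DHCR7 and MVD, later enzymes of the pathway, differed by 0.67 and 0.58. Fatty acid synthesis and LXR targets were balanced between extracts, with 6 of 16 higher and 5 lower. Against vehicle, 12 of the 16 were lower under Pinelliae Tuber (0 higher; median -0.35) and 12 under Scutellariae Radix (1 higher; median -0.28), and 11 were lower in the high-dose than in the low-dose Pinelliae Tuber libraries (median -0.36).

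Mitochondrial genes differed little. All 13 genes of the mitochondrial DNA were uncalled (median 0.01), and 2 of 23 respiratory chain genes of the nucleus were higher and 7 lower. Ribosomal protein genes were higher in 13 of 28 cases and lower in 0, by small amounts (median 0.14, against 27.2% called higher over all genes), with RPS18 at 0.25. Hypoxia and glycolysis genes were split, with 7 of 24 higher and 8 lower, and so were PPARα targets, with 7 of 17 higher and 8 lower. Wnt targets were lower in 10 of 12 cases and higher in 1 (median -0.23, against 28.7% called lower over all genes), including the feedback inhibitor gene NOTUM (-0.63), and YAP and TEAD targets were split, with CCN1 higher (1.54) and CCN2 lower (-0.43). Gluconeogenesis and FOXO1 targets were higher in 8 of 14 cases and lower in 3 (median 0.28), with IGFBP1 (3.91) the highest. On the same list PCK1, a gluconeogenic enzyme gene, overlapped between groups at 4.21, 3.62 and 3.36 CPM against 3.79, 3.34 and 3.22 (-0.11, adjusted p = 0.52).

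Clock, inflammation, interferon and P-TEFb lists had members on both sides, where 27.2% of all genes were called higher and 28.7% lower. Of 16 clock genes, 4 were higher and 5 lower, with BHLHE40 at 1.35 and DBP at -1.21. NF-κB targets and chemokines were higher in 4 and lower in 6 of 12 cases: IER3 was at 75.9, 73.5 and 78.4 CPM against 280, 233 and 258 (1.76, adjusted p = 3.5e-27), and NFKBIA, which encodes the inhibitor IκBα, differed by -0.68. CCL20 overlapped between groups, at 27.7, 32.9 and 35.8 CPM against 29.3, 24.8 and 25.2 (-0.28, adjusted p = 0.0056). Interferon response genes were higher in 3 and lower in 6 of 14 cases, with OAS1 at 0.92 and PSMB9 at -0.84. P-TEFb and MYC linked genes were higher in 7 and lower in 2 of 12 cases, with MCL1, a survival factor, at 0.82 and HEXIM1, the P-TEFb inhibitor, at -0.54. HP, haptoglobin, was at 205, 194 and 204 CPM against 97.8, 103 and 110 (-0.96, adjusted p = 2.1e-22), though 2 of 8 acute phase genes were higher and 3 lower.

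The same extract difference was then taken at the lower doses, in libraries that the high-dose comparison does not share. At the medium dose 1883 genes were called (13.5%), 48 of them at least 2-fold (0.344%), and at the low dose 790 (5.67%; 2.95% lower), 12 of them at least 2-fold (0.0861%). Both the medium and the high dose called 1400 genes, 18% of the high-dose list and 74.3% of the medium-dose list. Of these 1400, 1060 differed in the same direction and 340 in opposite directions. Both the low and the high dose called 573 genes, 7.35% of the high-dose list and 72.5% of the low-dose list. Of these 573, 342 differed in the same direction and 231 in opposite directions. Over all genes tested, 55.9% were called at the high dose. Across these genes the high-dose differences correlated at 0.26 with those of the medium dose and at 0.057 with those of the low dose. Without replicate 3 of the Scutellariae Radix low-dose libraries, which stands apart from the other 2, the low-dose count was 372, without Pinelliae Tuber low-dose replicate 1, 2 or 3 it was 451, 520 or 522, and with only the 6 low-dose libraries in the fit it was 121. The difference between extracts itself differed between the high and the low dose for 6198 genes (44.4%) in the interaction test.

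Lists differed in how they moved with dose. NRF2 targets were higher at each dose, in 16 of 21 cases at the medium dose (6.15% of all genes; median 0.43) and 15 of 21 at the low dose (2.71%; median 0.29), and SRXN1 differed by 0.45, 0.71 and 1.20 from low to high dose. Without Scutellariae Radix low-dose replicate 3, 14 of 21 were higher at the low dose (median 0.28). Metallothioneins and zinc transporters had medians of -0.19, -0.33 and -0.70 from low to high, and without that library the low-dose median was -0.29, with 5 of 11 lower. Mitosis, DNA replication, p53 and ATF4 lists had medians near 0 below the high dose. At the medium dose 2 of 23 mitosis genes (7.35% of all genes) and 0 of 24 replication genes were lower. Of p53 targets, 3 of 20 were higher there and 0 lower. Of ATF4 targets, 6 of 21 were higher and 2 lower, against 6.15% and 7.35% of all genes. CDKN1A differed by -0.05 (adjusted p = 0.48) at the low, 0.27 (adjusted p = 1.4e-07) at the medium and 2.56 at the high dose.

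Some immediate early genes differed the other way below the high dose. At the medium dose 3 of the 15 were higher and 2 lower, against 6.15% and 7.35% of all genes (median -0.11). EGR1 was lower under Scutellariae Radix at the low dose (-0.46, adjusted p = 0.00099) and the medium dose (-0.53, adjusted p = 3.9e-05), at 7.27, 7.47 and 8.49 CPM against 11.5, 10.2 and 11.7 at the medium dose, and higher at the high dose. FOS was lower at the medium dose, at 0.388, 0.446 and 0.33 CPM against 1.07, 0.612 and 0.791 (-1.07, adjusted p = 0.0075), levels at which few reads stand behind each value. IER3 and DDIT3 likewise were at -0.32 (adjusted p = 0.00042) and -0.25 (adjusted p = 0.024) at the medium dose. HAMP was at 57.7, 57.2 and 56.2 CPM against 69.4, 76.6 and 71.2 at the medium dose (-0.34, adjusted p = 0.00095), a smaller difference than at the high dose.

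**Figure D3:**
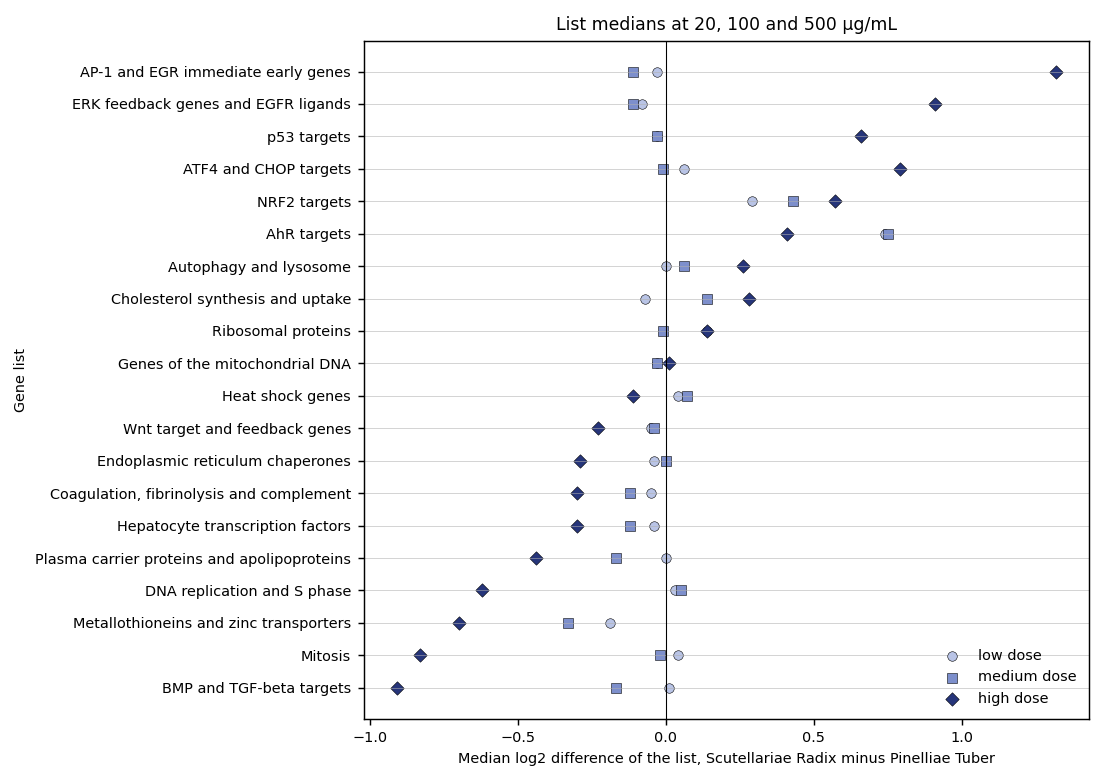
Each row gives the median log2 difference of a gene list, Scutellariae Radix minus Pinelliae Tuber, at 20 (circle), 100 (square) and 500 µg/mL (diamond). The NRF2 median rises with dose and the metallothionein median is farthest from 0 at the high dose (at the low dose it is -0.29 in place of -0.19 without Scutellariae Radix replicate 3), while the mitosis, replication and p53 medians leave 0 at 500 µg/mL only; the AhR median is largest below the high dose.

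Each high-dose extract was also set beside vehicle. Against the same 3 vehicle libraries, 7912 genes were called for Scutellariae Radix (56.7%), 691 at least 2-fold (4.96%), and 2190 for Pinelliae Tuber (15.7%), 32 at least 2-fold (0.229%). CDKN1A was above vehicle under Scutellariae Radix (2.15) and below it under Pinelliae Tuber (-0.40, adjusted p = 8.6e-12), and ASNS likewise (1.86 and -0.36), so for these genes the distance between extracts was wider than either distance from vehicle. EREG and AQP3 were above vehicle under both, at 4.32 and 1.00 for EREG and 5.20 and 0.70 for AQP3. Within the label prefix, 7771 genes differed between high and low dose of Scutellariae Radix (55.7%) and 1404 between those of Pinelliae Tuber (10.1%; 5.09% higher at the high dose). Single libraries moved the smaller counts: Pinelliae Tuber against vehicle gave 1328 genes without vehicle replicate 3, and Pinelliae Tuber high against low gave 925 without high-dose replicate 1 and 921 without low-dose replicate 2.

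**Figure D4:**
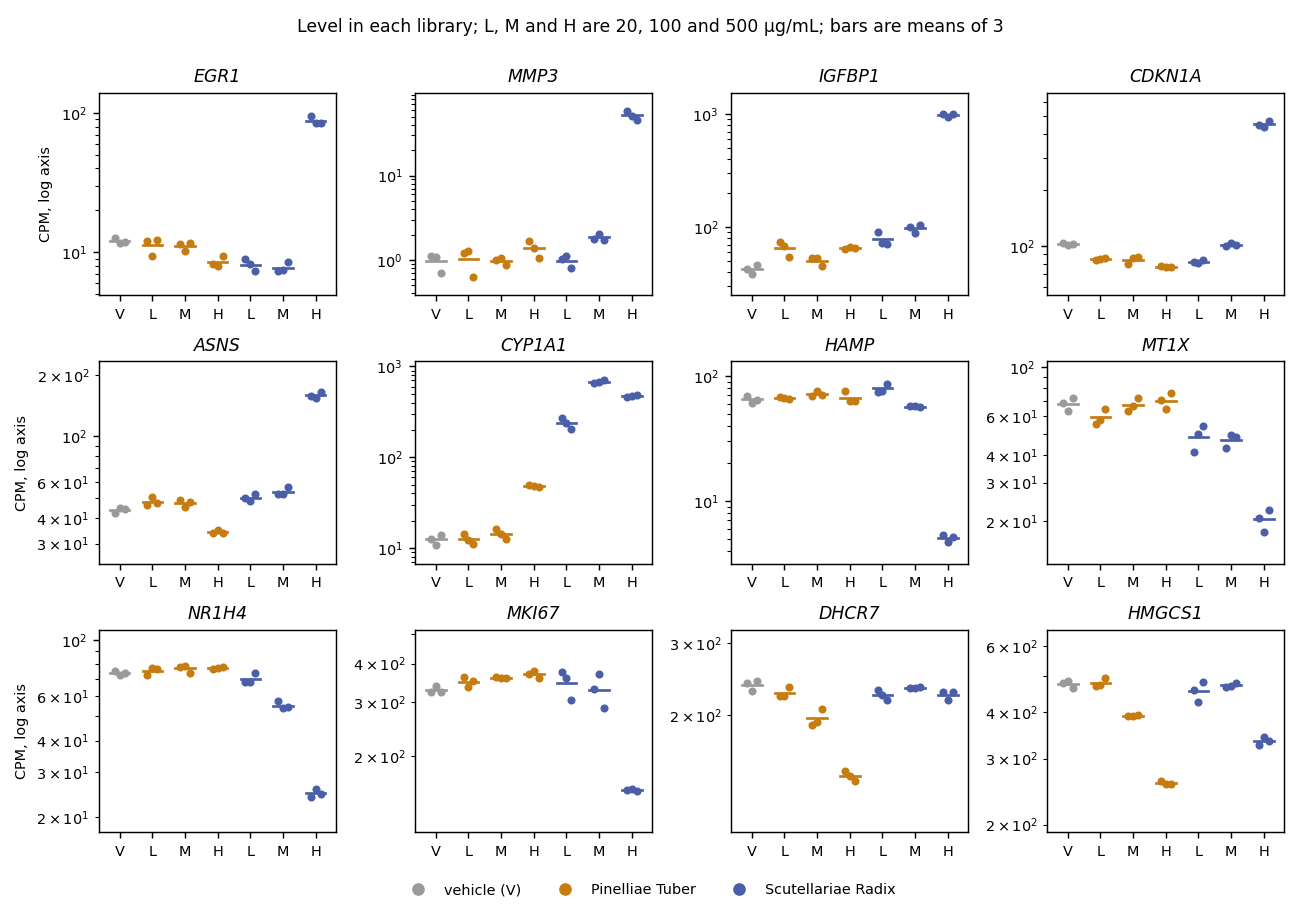
Each panel gives the level of a gene (CPM, log axis) in the 3 libraries of vehicle (grey), Pinelliae Tuber (orange) and Scutellariae Radix (blue) at 20, 100 and 500 µg/mL, with bars at the means. EGR1, MMP3, IGFBP1 and CDKN1A step up, and HAMP, NR1H4 and MKI67 step down, in the Scutellariae Radix high-dose libraries, while HMGCS1 is lower at the medium than at the low dose of Pinelliae Tuber and lowest at its high dose.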

How the data were processed

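RNA was sequenced as 100 bp read pairs from directional mRNA libraries, each prepared from 1 µg of RNA (integrity number over 7), per the labels' protocols. The authors deposited RSEM expected counts per gene, which are estimates and need not be whole (75.26% of values above 0 are whole), without normalization. FastQC 0.11.9, Trim Galore 0.6.5, STAR 2.7.3a, RSEM 1.3.3 and GRCh38 are named in the submitters' processing notes; whether counting used strand is not given in the sources used here. RSEM shares reads among near-identical genes, which touches metallothioneins, HSPA1A and HSPA1B, GSTA1 and GSTA2, ACSM2A and ACSM2B, ACSL3P1 and histones.

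Expected counts were rounded and fitted with edgeR 4.0.16 (quasi-likelihood test, TMM factors, R 4.3.3, limma 3.58.1) over all 58 libraries in 24 groups, without covariates, so that groups share an estimate of spread. A gene was tested where 3 or more libraries reached 1 CPM (13945 genes), p-values were adjusted by Benjamini-Hochberg over all of them at 0.05, and the SE was taken from the test statistic. The 6 libraries held 24345937 to 28487847 expected reads, at which expression near 1 CPM rests on few reads. The fit was also run on counts simulated from its own spread and means, changed for the Scutellariae Radix high dose. There the means were set to those of the Pinelliae Tuber high dose, with known differences planted in some genes. Such counts cannot show whether the model suits these libraries. Alternatives were DESeq2 1.42.0, RLE scaling in edgeR, no filter, a filter at 5 CPM, fits on fewer groups, a replicate block, and each replicate left out. A further 209 columns of the table could not be matched to a sample and were not used. Of 60675 gene identifiers, 57055 were given a symbol.

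Named genes were the 15 largest called differences each way with no overlap and at least 5 CPM in the higher group, up to 4 called members of each list, and a panel of 20 genes. The compared groups and the 41 gene lists were chosen with earlier results of these data known. Of 655 distinct list genes, 573 passed the filter and 82 were not tested. Results for some genes named by this rule are not reported here.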

Additional observations from a re-analysis of the deposited data

Results flagged for a closer look

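The extract difference, Scutellariae Radix minus Pinelliae Tuber, differed between 500 and 20 µg/mL for 6198 of 13945 genes by the interaction test of edgeR. Of 163 named genes tested and reported here, 142 were among them, and 5 of these were called at both doses in opposite directions. HAMP, the hepcidin gene, differed by -3.73 at the high and 0.25 at the low dose (interaction -3.99). EGR1 differed by 3.38 and -0.46 (interaction 3.84). POLE2, a DNA polymerase subunit gene, differed by -0.80 and 0.25 (interaction -1.04), and ACAA2, of fatty acid oxidation, by -0.33 and 0.12 (interaction -0.44). ACSS2, an acetyl-CoA synthetase, differed by 0.67 and -0.17 (interaction 0.84).

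Replicate 3 of the low-dose Scutellariae Radix libraries stands apart from the other 2, and without it the low-dose differences were 0.18 for HAMP (adjusted p = 0.3), -0.39 for EGR1 (adjusted p = 0.024), 0.24 for POLE2 (adjusted p = 0.11), -0.16 for ACSS2 (adjusted p = 0.013) and 0.08 for ACAA2 (adjusted p = 0.36). The interactions were still called for all 5 without it, at -3.92, 3.76, -1.03, 0.84 and -0.41. The part of that library in the low-dose values was not tested beyond leaving it out.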

How the results depend on the processing

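The high-dose extract comparison gave 6932 genes with a filter of 5 CPM, 7242 with DESeq2 and 8067 without 3 libraries that stand apart, an alternative chosen after seeing the data, against 7795, and 7103 to 7201 with each replicate left out. The low-dose comparison depended most on its setting: against 790 genes it gave 121 when no other groups entered the fit, 442 without the 3 libraries that stand apart, and 372 to 1092 with each replicate left out, the lowest without Scutellariae Radix low-dose replicate 3. Its split of 378 higher and 412 lower became 670 and 337 with no filter and 494 and 321 with DESeq2. With each replicate left out, Pinelliae Tuber high against vehicle gave 1328 to 1926 genes and Pinelliae Tuber high against low 921 to 1073; the cause was not tested. Of 2301 values of named genes under the alternatives, 2285 kept direction and call, 16 kept direction and lost the call (IFIT1, TIE1, CD68, LYZ, CCL20 and RPLP2) and 0 reversed. Most lists kept their balance of higher and lower members at high dose under the 14 alternatives; acute phase, heat shock, hypoxia, PPARα, fatty acid and LXR, mitochondrial DNA, endothelium and lung lists did not in all.

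What a replicate number marks is not given in the labels. Over 45 same-number pairs the correlation of deviations had a median of 0.006 (-0.127 to 0.152). Low correlations of this kind cannot show that the libraries were unpaired. Between the high-dose groups, same-number pairs gave -0.005 to 0.07. Pinelliae Tuber replicates 1 and 2 correlated best there with Scutellariae Radix replicates 3 (0.008) and 1 (0.041). Replicate 3 correlated best with its own number (0.07). With only label prefix 10 and vehicle in the fit, a replicate block moved the high-dose count from 7768 to 7838. In the same fit the medium count moved from 1914 to 1967, the low from 640 to 786 and the interaction from 6201 to 6282. Against vehicle the block moved the count from 7880 to 7961 for Scutellariae Radix and from 2075 to 2168 for Pinelliae Tuber. Between high and low dose it moved the counts from 7767 to 7840 and from 1310 to 1387. Genes near 1 CPM rest on few reads, and differences there are least precise.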
